A study of Mus musculus with 12 samples.

Results

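The genes described here are 35 mouse genes of cholesterol and lipid synthesis, their regulators and genes of cholesterol export and storage, chosen by gene name from the 55487 rows of a raw count table. All 35 names were found. Of these, 34 were among the 15905 genes with enough counts to be tested, and the fatty acid desaturase Fads2 was not, with 0 to 10 counts in any library. The libraries came from CD4+ T cells sorted out of the spleen and peripheral lymph nodes of WT mice and of Rinl-KO mice, which lack Rinl, a gene for a Rab guanine nucleotide exchange factor. Naive cells were sorted as CD44lo and effector cells as CD44hi, with a further surface marker in the gate, which gave 4 groups of 3 libraries each: WT naive (libraries 1, 2 and 3 below), WT effector (4, 5 and 6), KO naive (7, 8 and 9) and KO effector (10, 11 and 12). The cells were taken directly from the mice with no treatment named, and no source used here gives the age, sex or background strain of the mice, the construction of the knockout allele or any pooling of animals. Whether the 3 libraries of each group stem from different mice is likewise unknown, so the p-values measure the spread between these libraries, which may be partly technical.

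Cells build cholesterol from acetyl-CoA through mevalonate, farnesyl diphosphate, squalene and lanosterol. When membrane sterol is low, the escort protein Scap carries the SREBP transcription factors, encoded by Srebf1 and Srebf2, from the endoplasmic reticulum to the Golgi, where they are cut and released to switch on the genes of the pathway; Insig1 and Insig2 hold them back when sterol is plentiful. The nuclear receptor LXR responds to oxysterols in the opposite situation and raises the export pumps Abca1 and Abcg1 and Mylip, a ubiquitin ligase that degrades lipoprotein receptors. In T cells this balance is known to shift on activation, when growing cells need membrane lipid.

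The libraries held 11606251 to 24320247 counts. The 3 WT naive libraries (12409965 to 19584111 counts) were all shallower than the 3 KO naive libraries (20072199 to 24320247). Rinl stood at 285 to 463 CPM, a gene's count relative to the total of its library, in the 6 WT libraries and at 32.2 to 49.4 in the 6 KO libraries, as the labels say. The T cell genes Cd3e and Cd4 were present in WT naive cells at 472 ± 6.57 and 996 ± 20.2 CPM (mean ± SD, n = 3). The sort marker Cd44 rose from 18.8 ± 1.42 CPM in WT naive to 257 ± 2.33 in WT effector cells. CPM values here are scaled by TMM, edgeR's normalization between libraries.

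Per unit of transcript length, genes of transcription factors were the most abundant of the set. In WT naive cells the 3 highest values in FPKM (fragments per kilobase of gene length and per unit of library size) belonged to Srebf2 at 70.7 ± 3.21 (SD, n = 3), to Nr1h2, which encodes the LXR form found in most cells, at 52.1 ± 3.74, and to Srebf1 at 31.9 ± 0.583. The enzymes spread over a wide range of FPKM: Fasn, the fatty acid synthase, stood at 25.7 ± 0.615, Hmgcs1, which condenses acetyl-CoA units into HMG-CoA, at 21.2 ± 1.298, and Idi1, which isomerises isopentenyl diphosphate, at 3.45 ± 0.539. Of the paired stearoyl-CoA desaturases, Scd2 stood at 18.7 ± 1.302 FPKM and Scd1 at 0.333 ± 0.0560. These are similar neighbouring genes, and reads that match both could be counted for either.

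**Figure D1:**
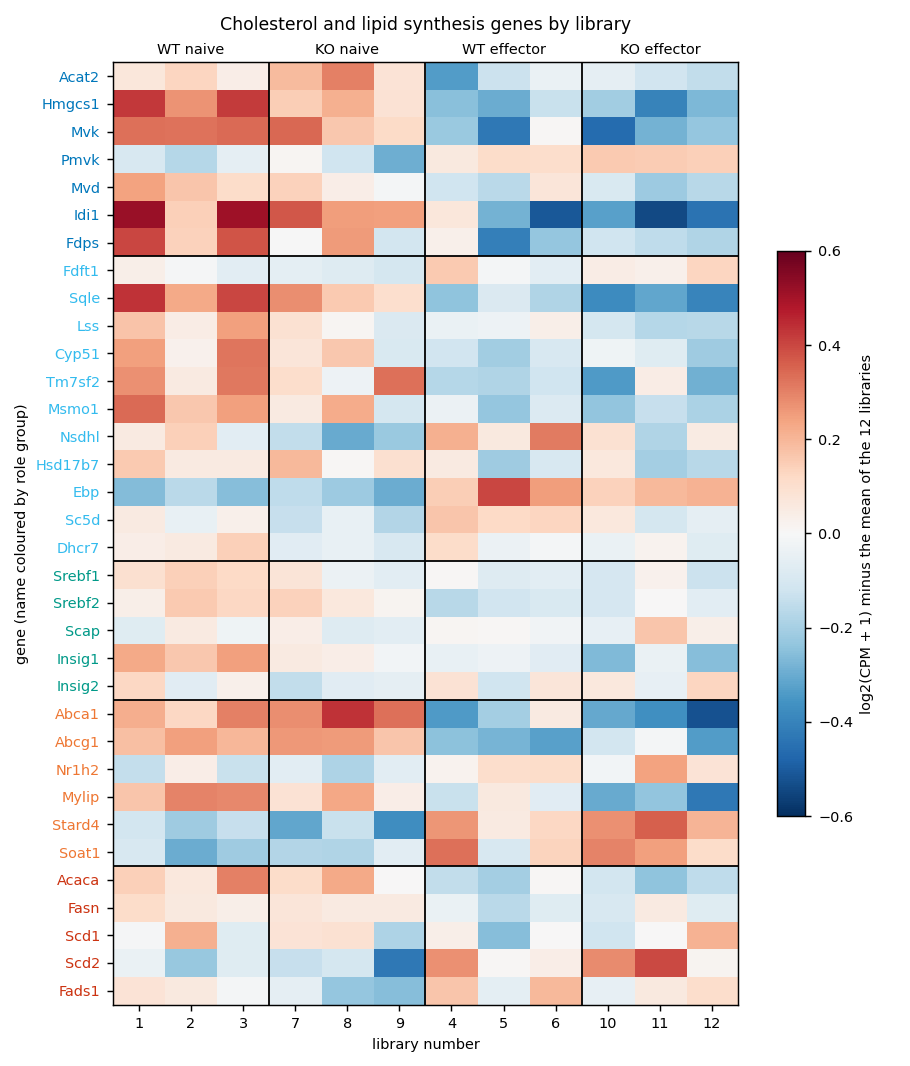
Each row is a gene, grouped by role, and each column a library; the colour gives log2(CPM + 1) of the library minus the gene's mean over all 12 libraries. The clearest blocks of colour separate naive from effector libraries, with Hmgcs1, Mvk, Idi1 and Sqle lower and Ebp, Stard4 and Soat1 higher in effector cells.

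The first question of the design was what the loss of Rinl does to gene expression in each sorted population. Among the sterol synthesis genes the values leaned downward in KO cells by small amounts. Within a single cell type only Mylip in effector cells passed the test, as lower (edgeR quasi-likelihood test, Benjamini-Hochberg adjusted p under 0.05 over all tested genes). The average over both cell types was secondary to these comparisons and was made because the changes were small. In the average, Sqle, Nsdhl and Sc5d of the sterol pathway were lower, by 10.1% to 16.6% together with the SREBP inhibitor gene Insig1 and the LXR target gene Mylip. No gene of the set passed as higher.

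In naive cells 0 of the 34 tested genes passed, where 1.18% of all tested genes did (0.679% higher and 0.497% lower). By unadjusted p under 0.05 there were 11 of 34, beside 11.9% of all tested genes. DESeq2 and limma-voom both gave 0 calls, and the fitted change was negative for 28 of the 34, with a median log2 change of -0.11 beside 0 over all tested genes. In effector cells 1 gene passed (2.94% of the set, beside 3.16% of all tested genes, 1.45% higher and 1.72% lower), 6 had an unadjusted p under 0.05 beside 16.1% of all tested genes, 19 changes were negative and the median was -0.022 beside 0.0022. Averaged over both cell types, 5 genes were lower and 0 higher, 14.7% of the set beside 3.8% of all tested genes in either direction with 1.99% higher and 1.82% lower, and the median was -0.053 beside 0.0031. The naive median of the set was -0.070 without library 1 and -0.073 without library 9. The effector median was -0.051 without library 5, -0.034 without library 11, -0.012 without library 6, -0.011 without library 4 and -0.0045 without library 12. The naive and effector changes come from separate libraries, and across the 34 genes they correlated weakly (Pearson r = 0.29, Spearman rho = 0.43, given as a description), with the same sign in 19 of 34 (55.9%) beside 55.5% of all tested genes. The KO and WT libraries did not overlap for 7 of the 34 genes in naive cells and 5 in effector cells, beside 20.5% and 17.9% of all tested genes.

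**Figure D2:**
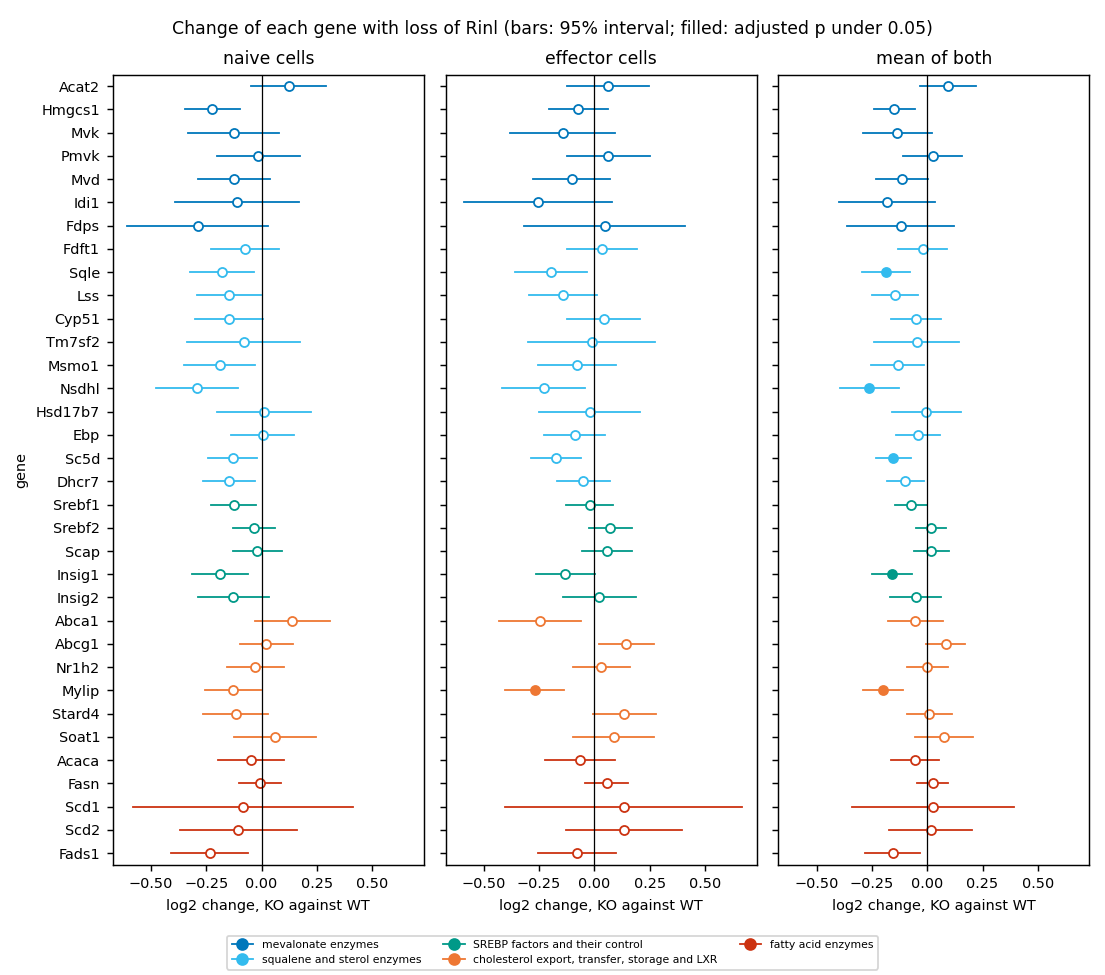
Points are log2 fold changes of KO over WT with 95% intervals from edgeR, by gene and role, for naive cells, effector cells and their average; filled points passed the adjusted p of 0.05. The averaged changes of all 11 enzymes from squalene onward lie below 0, and the filled points are Sqle, Nsdhl, Sc5d, Insig1 and Mylip.

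Of the 7 mevalonate enzymes none passed in KO against WT, with a median averaged change of -0.12. Hmgcs1 (ENSMUSG00000093930, chromosome 13, 119690379 to 119708260, plus strand of GRCm38) came closest. It stood at 77.2, 69.2 and 76.8 CPM in WT naive, 63.4, 66.4 and 60.9 in KO naive, 48.0, 46.3 and 52.0 in WT effector and 49.3, 43.1 and 47.3 in KO effector libraries. The 3 KO naive libraries were all below the 3 WT naive libraries, while the effector libraries overlapped. The fitted log2 change was -0.22 ± 0.060 (SE) in naive cells, with an adjusted p of 0.072, and -0.15 ± 0.044 averaged, with 0.063. The averaged change passed in 4 of 20 alternative settings and the naive change in 3 of 21. Idi1, at -0.18 ± 0.11 averaged, and Mvk, the mevalonate kinase, at -0.13 ± 0.076, had intervals that include 0 (-0.40 to 0.036 and -0.29 to 0.023). Acat2, the thiolase that joins acetyl-CoA units at the start of the pathway, had the highest averaged value of the 34 genes, 0.092 ± 0.061 with an interval of -0.034 to 0.22 and an adjusted p of 0.49.

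All 11 enzymes from squalene to cholesterol had negative averaged changes, from -0.26 to -0.0051, beside 48.9% of all tested genes. Of the 11, 3 passed as lower, beside 1.82% of all tested genes. The genes were measured in the same libraries, so their signs are not independent of each other. Sqle, the squalene epoxidase (ENSMUSG00000022351, chromosome 15, 59315077 to 59331192, plus strand), stood at 39.5, 34.1 and 38.6 CPM in WT naive, 35.3, 32.4 and 31.1 in KO naive, 24.3, 27.2 and 25.4 in WT effector and 22.0, 23.1 and 21.8 in KO effector libraries. The KO effector libraries lay below the WT effector libraries, and the naive groups overlapped through WT library 2. Its averaged log2 change was -0.19 ± 0.052 (95% interval -0.30 to -0.079, adjusted p = 0.046). Nsdhl, which removes a carboxyl group during demethylation of sterols (ENSMUSG00000031349, chromosome X, 72918557 to 72958514, plus strand), stood at 21.4, 22.8 and 19.7 CPM in WT naive, 18.4, 16.5 and 17.5 in KO naive, 24.0, 21.4 and 25.7 in WT effector and 22.0, 18.01 and 21.3 in KO effector libraries. All 3 KO naive libraries were below all 3 WT naive libraries, and the effector groups overlapped at the single value of KO library 10. The averaged change of Nsdhl was -0.26 ± 0.064 (interval -0.39 to -0.13, adjusted p = 0.019). Sc5d, the sterol desaturase (ENSMUSG00000032018, chromosome 9, 42251595 to 42264256, minus strand), stood at 67.9, 63.4 and 66.7 CPM in WT naive, 59.5, 63.3 and 57.9 in KO naive, 73.7, 71.2 and 71.8 in WT effector and 68.4, 60.7 and 62.9 in KO effector libraries. Its KO libraries lay below the WT libraries in naive cells, by a margin of under 1 CPM between libraries 2 and 8, and in effector cells. The averaged change of Sc5d was -0.15 ± 0.038 (interval -0.23 to -0.073, adjusted p = 0.024).

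Of the other 8 enzymes of this stretch, Lss, which closes the ring of lanosterol, had an averaged change of -0.14 ± 0.051 with an adjusted p of 0.13. Msmo1, a sterol methyl oxidase, stood at -0.13 ± 0.057 with 0.23, and Dhcr7, the last reductase, at -0.099 ± 0.040 with 0.20. The remaining 5, namely Fdft1, Cyp51, Tm7sf2, Hsd17b7 and Ebp, lay between -0.053 and -0.0051 with intervals that include 0. Counting may be uncertain for Tm7sf2, which shares 532 bases on the same strand with Vps51, and for Fdft1 and Cyp51, which overlap Ctsb and Akap9 on the opposite strand by 774 and 166 bases. Each of these neighbours had higher counts than the enzyme.

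Added together, the 18 enzymes from Acat2 to Dhcr7 gave 547, 510 and 544 CPM in the WT naive libraries (534 ± 20.8, SD, n = 3) and 498, 498 and 462 in the KO naive libraries (486 ± 21.1). The sums were 476, 461 and 482 CPM in WT effector (473 ± 10.6) and 458, 441 and 443 in KO effector libraries (447 ± 8.91). In both cell types each KO sum lay below each WT sum. In effector cells the margin was narrow, with KO library 10 at 458 CPM and WT library 5 at 461. Single genes separated in this manner, in either direction, for 20.5% of all tested genes in naive and 17.9% in effector cells. No such share was computed for sums over several genes, so how often sums separate is not known. Over the 18 genes the change was negative for 15 in naive cells (median -0.13, 0 passed), for 13 in effector cells (median -0.076, 0 passed) and for 16 in the average (median -0.12, 3 passed), beside 49.7%, 49.3% and 48.9% of all tested genes. Of all tested genes 1.18%, 3.16% and 3.8% passed in these comparisons in either direction. The signs of genes measured in the same libraries are not independent. The effector median was -0.026 without library 6 and -0.040 without library 4, and the averaged median was -0.076 without library 4. In bulk libraries a lower value cannot be told apart as fewer cells of a kind or less RNA per cell.

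**Figure D3:**
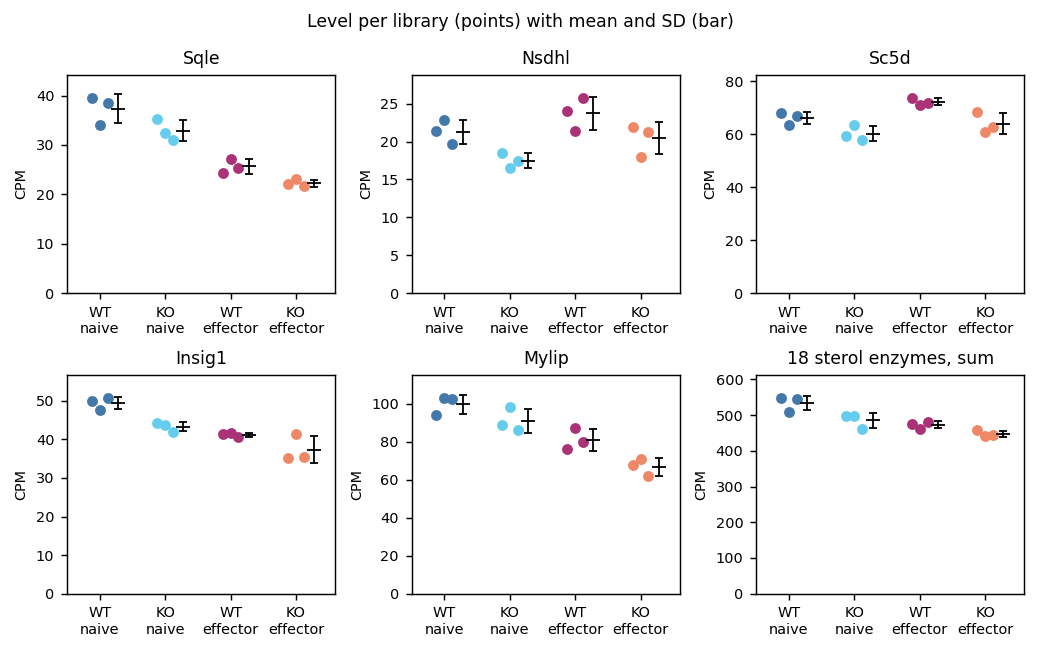
Levels in CPM in each of the 12 libraries for the 5 genes that passed in the averaged comparison and for the sum of the 18 sterol enzymes, with the group mean and an error bar of 1 SD beside the points (n = 3 per group). In each of the 6 panels the KO means lie below the WT means of the same cell type.

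The SREBP factors themselves showed no call in KO cells. Srebf2, whose product mainly drives the sterol genes, stood at 344, 374 and 366 CPM in WT naive, 369, 350.0 and 339 in KO naive, 299, 309 and 315 in WT effector and 313, 336 and 321 in KO effector libraries. The WT and KO ranges overlapped in naive and in effector cells, and the averaged log2 change was 0.018 ± 0.033 with an interval of -0.050 to 0.086. Srebf1, whose product mainly drives fatty acid genes, stood at 136, 140.3 and 138 CPM in WT naive, 134, 124 and 121 in KO naive, 128, 120.3 and 122 in WT effector and 118, 129 and 116 in KO effector libraries. Its KO naive libraries were all below its WT naive libraries and the effector groups overlapped, with changes of -0.13 ± 0.050 (adjusted p = 0.28) and -0.022 ± 0.051 (0.89). Srebf1 overlaps Rai1 on the other strand by 109 bases. Scap gave an averaged change of 0.019 ± 0.038 (-0.059 to 0.097).

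Insig1, which anchors the Scap complex in the endoplasmic reticulum and is itself an SREBP target (ENSMUSG00000045294, chromosome 5, 28071363 to 28078662, plus strand), stood at 49.97, 47.6 and 50.7 CPM in WT naive, 44.2, 43.7 and 42.0 in KO naive, 41.3, 41.6 and 40.5 in WT effector and 35.2, 41.3 and 35.5 in KO effector libraries. Its KO naive libraries were all lower than its WT naive libraries, and in effector cells KO library 11 reached the WT range while the other two did not. The averaged change was -0.16 ± 0.044 (interval -0.25 to -0.069, adjusted p = 0.041). Insig2, its paralog, stood at 26.4, 23.0 and 24.6 CPM in WT naive, 21.7, 23.0 and 23.2 in KO naive, 25.7, 22.2 and 25.4 in WT effector and 25.2, 23.3 and 26.5 in KO effector libraries. The groups of Insig2 overlapped in both cell types and its averaged change was -0.053 ± 0.056 (-0.17 to 0.062).

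Mylip (ENSMUSG00000038175, chromosome 13, 45389742 to 45412022, plus strand) was the gene of the set with the smallest averaged p. It stood at 93.9, 103 and 102 CPM in WT naive, 88.9, 98.2 and 86.0 in KO naive, 76.0, 87.0 and 79.7 in WT effector and 67.6, 70.8 and 61.8 in KO effector libraries. In effector cells each KO library lay below each WT library, and in naive cells the groups overlapped through WT library 1 and KO library 8. The log2 change was -0.27 ± 0.064 in effector cells (interval -0.40 to -0.14, adjusted p = 0.020), a fall of 17.1%, and -0.13 ± 0.061 in naive cells (adjusted p = 0.40). Averaged over both it was -0.20 ± 0.044 (-0.29 to -0.11, adjusted p = 0.0092). The difference between the effector and naive changes was -0.14 ± 0.088 with an adjusted p of 0.66.

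The LXR targets Abca1 and Abcg1 passed in neither cell type. Abca1, the pump that loads cholesterol onto lipid-poor apolipoprotein, stood at 50.2, 46.9 and 53.2 CPM in WT naive, 52.3, 58.5 and 54.3 in KO naive, 33.8, 37.2 and 44.7 in WT effector and 34.5, 33.1 and 29.6 in KO effector libraries. Its KO values ran toward the upper end in naive cells and toward the lower end in effector cells, with overlap in both, and the changes were 0.14 ± 0.080 (adjusted p = 0.54) and -0.25 ± 0.088 (0.15). The difference of these changes, -0.39 ± 0.12, had an adjusted p of 0.27. Abcg1, which exports cholesterol to larger lipoprotein particles, stood at 120.0, 126 and 122 CPM in WT naive, 127, 126 and 119 in KO naive, 89.1, 87.1 and 84.3 in WT effector and 97.9, 105 and 83.8 in KO effector libraries. KO library 12 lay just below the WT effector libraries of Abcg1, and the other 2 KO effector libraries lay above them. The effector change of Abcg1 was 0.14 ± 0.061 with an adjusted p of 0.23. Without library 12 its adjusted p was 0.021 and it passed as higher. Across the 6 genes of export, transfer, storage and LXR, 1 passed in the average, and the 5 others lay between -0.054 and 0.083.

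None of the 5 tested fatty acid enzymes passed in KO against WT. Fads1, a desaturase of polyunsaturated fatty acids, stood at 21.4, 21.0 and 19.98 CPM in WT naive, 19.3, 17.0 and 16.7 in KO naive, 22.7, 19.3 and 23.2 in WT effector and 19.4, 21.0 and 21.8 in KO effector libraries. Its KO naive libraries were all below the WT naive libraries, with a change of -0.23 ± 0.084 and an adjusted p of 0.22. Fasn and Acaca, the acetyl-CoA carboxylase, had averaged changes of 0.024 ± 0.033 (-0.044 to 0.092) and -0.056 ± 0.053 (-0.16 to 0.053). Fads2 had counts of 2, 1 and 0 in WT naive, 2, 0 and 1 in KO naive, 3, 0 and 2 in WT effector and 6, 10 and 7 in KO effector libraries. Its KO effector counts were above all others. In the fit with no filter on low counts KO effector differed from KO naive cells (log2 3.16, adjusted p = 0.00074) and KO effector from WT effector cells did not pass (2.05, 0.16).

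The 5 calls rest on small differences, and leaving out single libraries ended most of them. Mylip passed in the average without any 1 of the 12 libraries. Its effector call was lost without library 5, 6 or 12 (adjusted p = 0.059 to 0.12). Nsdhl was lost without library 2, 6, 8, 9 or 11 (0.052 to 0.081) and Sc5d without library 1, 3, 7, 9, 11 or 12 (0.051 to 0.091). Of the fits without 1 library, Sqle was kept only without library 2, 4 or 7, and was otherwise at 0.052 to 0.14. Insig1 was kept only without library 11, and was otherwise at 0.058 to 0.12. Of the 5 calls, 1 was kept without KO library 9 and 2 without library 1, 3, 6, 8, 11 or 12. Without library 2, 5, 7 or 10, 3 were kept, and without library 4, 4 were kept. A gene outside the 5 also passed as lower without library 2, 5 or 10. The fits on log2 FPKM gave 0 calls. The fitted change of each of the 5 genes stayed negative in all 20 settings.

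Markers of other cells and of cell handling also differed between KO and WT libraries. Of 10 handling genes, 8 were tested and 3 passed as higher in KO, namely Fos, Dnajb1 and Dnaja1, in naive cells (log2 0.80, 0.32 and 0.29) and in effector cells (0.63, 0.28 and 0.32). Over all tested genes 0.679% were higher and 0.497% lower in naive cells, and 1.45% and 1.72% in effector cells. The sum over this list was 395 to 425 CPM in WT naive, 449 to 495 in KO naive, 464 to 489 in WT effector and 488 to 620.1 in KO effector libraries. B cell markers (8 of 10 tested) summed to 3.63 to 6.88 CPM in WT naive and 7.04 to 9.78 in KO naive cells, and to 27.9 to 35.1 and 26.8 to 32.6 in WT and KO effector cells, where 1 of them, Cd22, was lower in KO. Myeloid markers (9 of 10 tested) summed to 32.5 to 43.8 and 45.0 to 57.4 CPM in WT and KO naive cells, and to 43.5 to 68.6 and 54.5 to 77.8 in WT and KO effector cells. The B cell and myeloid sums of all KO naive libraries thus lay above those of all WT naive libraries, and the effector ranges overlapped. Markers shared by NK, NKT and gamma-delta cells (5 tested) summed to 194 to 196 CPM in WT effector and 121 to 160.1 in KO effector cells, with 3 of the 5 lower; Klrb1c and Zbtb16 of this list had 0 or 1 count in each WT naive library. Ms4a1, a defining B cell gene, had 1 to 4 counts in the WT naive libraries and 11 to 19 in the KO naive libraries, and the dendritic cell gene Clec9a had at most 3 counts in any library. The lists for plasma cells, CD8 T cells, erythroid cells and platelets, and stromal cells held 0 calls within a cell type, and in the average the plasma cell gene Jchain and the NK cell gene Ncr1 were higher in KO (log2 1.83 and 1.58) and Mcm3, of the cell cycle list, lower (-0.18). In the average 1.99% of all tested genes were higher and 1.82% lower. The part of these lists, and of the depth gap between the naive groups, in the results above was not tested.

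The stretches before the start sites of 4 of the 5 called genes are shown, with that of Hmgcs1, which did not pass. All 5 genes shown had negative averaged changes, as did 16 of the 18 sterol enzymes. The stretches come from RefSeq's promoter windows on GRCm38.p6, which run from 250 bases before to 50 bases after each start. The table held 35 windows for 27 of the 35 genes, Sqle not among them. Capitals mark 3 searched motifs on either strand: CCAAT, bound by NF-Y, which reads ATTGG on the other strand; TCACNCCAC, a form of the sterol regulatory element bound by SREBPs; and CACGTG, an E-box. None of the 3 overlaps another in the stretches printed, which are chr13:119690101-119690330, chr5:28071176-28071336, chr13:45389532-45389699 and chrX:72918392-72918520 on the plus strand and chr9:42264301-42264418 on the minus strand, written 5′ to 3′ toward each gene.
Hmgcs1: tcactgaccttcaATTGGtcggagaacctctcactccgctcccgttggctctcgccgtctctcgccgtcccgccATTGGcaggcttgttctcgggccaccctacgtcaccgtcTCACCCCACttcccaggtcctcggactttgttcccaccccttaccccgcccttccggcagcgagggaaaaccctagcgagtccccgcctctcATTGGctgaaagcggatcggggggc
Insig1: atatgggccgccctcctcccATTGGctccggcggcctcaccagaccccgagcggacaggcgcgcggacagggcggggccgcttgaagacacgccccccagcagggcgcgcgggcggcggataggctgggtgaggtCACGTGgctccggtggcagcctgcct
Mylip: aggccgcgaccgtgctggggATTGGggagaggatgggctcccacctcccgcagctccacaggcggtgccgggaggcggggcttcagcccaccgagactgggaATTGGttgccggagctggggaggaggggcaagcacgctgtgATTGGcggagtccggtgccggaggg
Nsdhl: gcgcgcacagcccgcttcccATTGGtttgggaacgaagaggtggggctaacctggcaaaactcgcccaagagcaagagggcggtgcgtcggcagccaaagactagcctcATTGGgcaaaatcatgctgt
Sc5d: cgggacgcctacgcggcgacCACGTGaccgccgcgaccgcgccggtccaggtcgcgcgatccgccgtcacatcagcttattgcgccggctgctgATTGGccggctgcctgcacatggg
The printed stretches were cut around the matches found before each start, so each holds at least 1 of the 3 motifs by construction. Each of the 5 holds at least 1 CCAAT, with 3 in Hmgcs1, 3 in Mylip and 2 in Nsdhl. Insig1 and Sc5d also hold a CACGTG. The TCACNCCAC form was found in 1 of the 35 windows (2.86%), that of Hmgcs1 and not of a called gene, beside 1.24% of all 32851 windows. CCAAT was in 22 of the 35 windows (62.9%) beside 37.4% of all windows, and CACGTG in 7 beside 7.15%. Counted by gene, CCAAT was in at least 1 window of 21 of the 27 genes (77.8%), 14 of the 15 sterol enzymes among them, beside 41.1% of all 27025 genes, and CACGTG in 6 of the 27 (22.2%) beside 8.09%. A match describes the letters and does not show binding, and SREBPs bind other forms of the element that were not searched.

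The second contrast set effector cells against naive cells of the same genotype. Most of the genes differed, and the mevalonate enzymes moved together: 6 of 7 were lower in WT effector cells, and of these Hmgcs1, Mvk, Idi1 and Fdps had log2 changes of -0.69 to -0.56. Sqle, Cyp51, Tm7sf2 and Msmo1 were also lower, while Ebp and Sc5d of the same pathway were higher. Srebf1, Srebf2 and Insig1 were lower, as were Abca1, Abcg1 and Mylip, whereas Stard4, Soat1 and Nr1h2 were higher.

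In WT cells 23 of 34 genes passed, 5 higher and 18 lower, or 67.6% of the set beside 56.2% of all tested genes. In KO cells 22 passed, 8 higher and 14 lower, or 64.7% beside 58.4%. Lower genes outnumbered higher ones in the set, while over all tested genes 30.2% were higher and 25.9% lower in WT, and 31.6% and 26.8% in KO. The 3 libraries of one population lay wholly above the 3 of the other for 26 of the 34 in WT and 25 in KO, beside 61.5% and 63.9% of all tested genes. The change was negative for 23 of the 34 genes in WT and 20 in KO, beside 49.2% of all tested genes in each. The median log2 change of the 34 was -0.19 in WT and -0.14 in KO, beside 0.0064 and 0.0085 over all tested genes. The WT and KO contrasts share no library, and their changes correlated across the 34 genes (Pearson r = 0.92, a description over genes, which are not independent replicates), as they did over all tested genes (0.96). Of the genes called in both, 18 were called the same way and 0 opposite ways, beside 7710 and 6 over all tested genes. Of the 23 WT calls, 19 passed in all 21 alternative settings, and of the 22 KO calls 14 did.

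**Figure D4:**
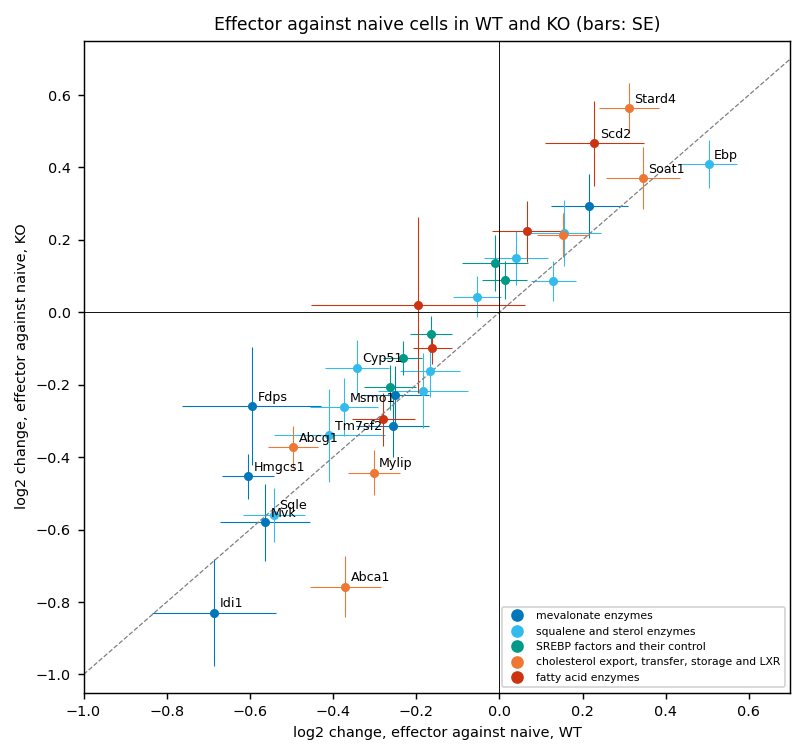
Each point is a gene, with its log2 change from naive to effector cells in WT on the horizontal axis and in KO on the vertical axis, coloured by role; bars are SE and the dashed line marks equal change. Most points lie near the line, with Abca1 below it and Fdps and Stard4 above it.

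The mevalonate enzymes fell in effector cells as follows. Hmgcs1, whose values are given above, had no overlap between effector and naive libraries in either genotype and fell by 34.2% in WT (log2 -0.60 ± 0.063, adjusted p = 1.4e-08) and by 27.0% in KO (-0.45 ± 0.062, 1.1e-06). Mvk and the enzymes of its isoprenoid products, Idi1 and Fdps, fell by similar amounts in WT. Mvk stood at 17.4, 17.3 and 17.5 CPM in WT naive, 17.6, 15.3 and 14.9 in KO naive, 11.5, 9.85 and 13.7 in WT effector and 9.63, 11.03 and 11.5 in KO effector libraries. Idi1 stood at 11.5, 8.65 and 11.4 CPM in WT naive, 10.3, 9.40 and 9.37 in KO naive, 8.17, 6.19 and 5.16 in WT effector and 5.97, 5.01 and 5.44 in KO effector libraries. Fdps, the farnesyl diphosphate synthase, stood at 6.26, 5.05 and 6.14 CPM in WT naive, 4.49, 5.57 and 4.10 in KO naive, 4.61, 3.13 and 3.68 in WT effector and 4.06, 3.95 and 3.85 in KO effector libraries. For these 3 genes every effector library was below every naive library of its genotype. The changes in WT were -0.56 ± 0.11 for Mvk (adjusted p = 9.7e-05), -0.69 ± 0.15 for Idi1 (0.00037) and -0.60 ± 0.17 for Fdps (0.0039). In KO they were -0.58 ± 0.11 (5.5e-05), -0.83 ± 0.15 (3.7e-05) and -0.26 ± 0.16 (0.18), the last not passing. Fdps lies within 7512 bases shared on the same strand with the gene model Gm43738, which had 0 counts in all libraries, and whether reads in the shared bases were all counted for Fdps is not given. Acat2 and Mvd, the decarboxylase that ends the mevalonate steps, fell by smaller amounts in both genotypes (-0.26 and -0.32 for Acat2, -0.25 and -0.23 for Mvd). Both calls were lost in some settings: Acat2 in WT without library 2 or 4, and Mvd in WT without library 1 or 5 and in KO without library 7 or 11 (adjusted p = 0.053 to 0.12). Pmvk, the kinase that follows Mvk, went the other way, at 0.22 ± 0.093 in WT (adjusted p = 0.051) and 0.29 ± 0.088 in KO (0.0063, or 0.069 without library 9).

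From squalene onward the enzymes were split. Sqle, with its values above, fell in WT (-0.54 ± 0.074, adjusted p = 1.1e-06) and in KO (-0.56 ± 0.074, 5.8e-07), with no overlap between naive and effector libraries. Msmo1 stood at 37.6, 33.1 and 35.2 CPM in WT naive, 30.7, 34.6 and 27.4 in KO naive, 28.8, 25.0 and 27.8 in WT effector and 24.9, 26.7 and 25.8 in KO effector libraries. Cyp51, the lanosterol demethylase, stood at 54.6, 46.7 and 57.5 CPM in WT naive, 48.2, 51.4 and 43.0 in KO naive, 42.2, 39.6 and 42.8 in WT effector and 45.0, 43.5 and 39.4 in KO effector libraries. Msmo1 fell in WT (-0.37 ± 0.082, 0.00042) and KO (-0.26 ± 0.081, 0.0075, or 0.063 without library 8). Cyp51 fell in WT (-0.34 ± 0.078, 0.00071), where the groups did not overlap, and was at -0.15 ± 0.076 in KO (0.090), where they did. Tm7sf2, a sterol reductase, fell by 24.7% in WT (-0.41, adjusted p = 0.012) and by 21.0% in KO (-0.34, 0.027), the KO call being lost without library 9, 10 or 12 (0.087 to 0.14). Ebp, which shifts a double bond in the sterol ring, rose. It stood at 30.3, 32.6 and 30.4 CPM in WT naive, 32.8, 31.3 and 29.6 in KO naive, 40.5, 48.6 and 43.6 in WT effector and 40.2, 42.0 and 42.4 in KO effector libraries, every effector library above every naive one, with changes of 0.50 ± 0.069 in WT (1.1e-06) and 0.41 ± 0.067 in KO (1.2e-05). Sc5d was higher in WT (0.13, 0.047), a call kept, of the fits without 1 library, only without library 10 or 11 (otherwise 0.052 to 0.20), and was at 0.087 in KO (0.18). Nsdhl was at 0.15 in WT (0.15) and higher in KO (0.22, 0.043), a call lost without library 1, 2, 3, 8, 9, 10 or 12 (0.059 to 0.20). The other 4, Fdft1, Lss, Hsd17b7 and Dhcr7, passed in neither genotype, with changes between -0.22 and 0.15.

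Of the regulators, Srebf2 fell from naive to effector cells in WT (-0.23 ± 0.047, adjusted p = 0.00016) and KO (-0.13 ± 0.046, 0.024), without overlap in either genotype, although the KO call was lost without library 7, 10 or 12 (0.055 to 0.094). Srebf1 fell in WT (-0.16 ± 0.050, 0.0079) and was at -0.059 ± 0.050 in KO (0.32). Insig1 fell in WT (-0.26 ± 0.063, 0.00095) and KO (-0.21 ± 0.062, 0.0063). Scap stood at 117, 127 and 121 CPM in WT naive, 126, 116 and 117 in KO naive, 124, 123 and 121 in WT effector and 118, 138 and 126 in KO effector libraries. Its ranges overlapped throughout, and Scap and Insig2 passed in neither genotype, with intervals in WT of -0.099 to 0.12 and -0.18 to 0.15.

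The LXR targets Abca1, Abcg1 and Mylip fell, while Stard4 of cholesterol transfer, Soat1 of storage and the LXR gene Nr1h2 rose. Abca1 fell in WT (-0.37 ± 0.085, adjusted p = 0.00092) and KO (-0.76 ± 0.084, 1.4e-07). Abcg1 fell in WT (-0.50 ± 0.060, 1.9e-07) and KO (-0.37 ± 0.059, 8.0e-06), and Mylip in WT (-0.30 ± 0.062, 0.00023) and KO (-0.44 ± 0.062, 1.7e-06). For all 3 the effector libraries lay below the naive libraries in both genotypes. Stard4, a carrier that moves cholesterol between membranes, stood at 38.4, 35.7 and 37.7 CPM in WT naive, 33.3, 37.8 and 31.9 in KO naive, 50.1, 43.1 and 45.4 in WT effector and 50.5, 53.5 and 48.0 in KO effector libraries. Soat1, which esterifies cholesterol for storage, stood at 51.9, 44.9 and 47.7 CPM in WT naive, 49.0, 48.9 and 53.2 in KO naive, 70.2, 51.9 and 61.0 in WT effector and 68.4, 66.1 and 60.1 in KO effector libraries. Stard4 rose by 0.31 ± 0.071 in WT (0.00063) and 0.56 ± 0.069 in KO (1.7e-07), and Soat1 by 0.35 ± 0.088 (0.0029) and 0.37 ± 0.085 (0.0012). Every effector library of Stard4 was above every naive library, and so it was for Soat1 in KO, while in WT the lowest effector library of Soat1, library 5, was barely above the highest naive one, library 1. Nr1h2 was higher in WT (0.15, 0.042) and KO (0.21, 0.0051). The WT call of Nr1h2 was lost without library 1, 3, 5, 6, 7, 9 or 12 (0.051 to 0.17) and the KO call without library 8 or 11 (0.055 to 0.060).

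Of the fatty acid enzymes, Acaca stood at 43.8, 41.3 and 48.9 CPM in WT naive, 42.7, 46.4 and 39.6 in KO naive, 35.6, 34.3 and 39.8 in WT effector and 36.5, 33.3 and 35.5 in KO effector libraries. Fasn stood at 268, 259 and 254 CPM in WT naive, 261, 258 and 258 in KO naive, 241, 221 and 236 in WT effector and 232, 257 and 236 in KO effector libraries. Every effector library lay below every naive library of its genotype for both genes. Acaca fell in WT (-0.28 ± 0.075, adjusted p = 0.0028) and KO (-0.30 ± 0.074, 0.0014), and Fasn fell in WT (-0.16 ± 0.047, 0.0051) and was at -0.097 ± 0.046 in KO (0.076). Scd2 stood at 108, 94.9 and 106 CPM in WT naive, 101, 103 and 82.4 in KO naive, 135, 112 and 114 in WT effector and 136, 147 and 113 in KO effector libraries, and its effector libraries lay above its naive libraries. Its change was 0.23 ± 0.12 in WT (0.13) and 0.47 ± 0.12 in KO (0.0056). Scd1 stood at 1.53, 1.93 and 1.41 CPM in WT naive, 1.68, 1.70 and 1.23 in KO naive, 1.60, 1.119 and 1.54 in WT effector and 1.33, 1.54 and 1.93 in KO effector libraries, overlapping throughout, with wide intervals of -0.73 to 0.34 in WT and -0.48 to 0.52 in KO. Fads1 was at 0.067 in WT (0.53) and higher in KO (0.22, 0.027), a call lost without library 8, 9, 11 or 12 (0.077 to 0.13).

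Calls that passed in one genotype only are not shown to differ between genotypes. The test of that difference, the change of the KO effect between cell types, gave 0 calls among the 34 genes (edgeR, and 0 by DESeq2 and limma-voom) beside 0.145% of all tested genes. By unadjusted p under 0.05 there were 2 of 34 beside 9.19% of all tested genes, Abca1 (-0.39 ± 0.12, adjusted p = 0.27) and Stard4 (0.25 ± 0.099, 0.41), and for Fdps the difference was 0.34 ± 0.23 with an interval of -0.15 to 0.82.

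Other lists moved between the sorted populations as well. Of 15 cell cycle genes 11 were higher and 1 lower in WT effector cells, beside 30.2% and 25.9% of all tested genes. The sum over the 15 was 453 to 466 CPM in WT naive and 617 to 663 in WT effector cells. The B cell sum was higher in the effector libraries, as given above, and that of NK, NKT and gamma-delta markers was 8.96 to 12.6 CPM in WT naive cells. Their part in the changes of the lipid genes was not tested.

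Beyond the set, 52 further genes of the same pathways were listed and 46 had enough counts. In KO against WT, 0 were higher and 1 lower in naive cells, 1 higher and 1 lower in effector cells, and 0 higher and 3 lower in the average. Over all tested genes 1.18%, 3.16% and 3.8% passed in these comparisons in either direction. The naive call was Gpr183, the receptor for oxysterols that guides migration (113 ± 7.98 CPM in WT and 94.0 ± 1.25 in KO, log2 -0.26 ± 0.061, adjusted p = 0.031). Gpr183 was not lower in effector cells, at 119 ± 10.3 CPM in WT and 122 ± 6.72 in KO (log2 0.045, not passed). Its averaged change of -0.11 did not pass, nor did the difference of 0.31 between its effector and naive changes. In effector cells Acss2, which makes acetyl-CoA from acetate, was lower (54.9 ± 3.83 and 45.3 ± 1.10 CPM, -0.28 ± 0.059, 0.0090) and Hacd3, a dehydratase of fatty acid elongation, was higher (164 ± 3.00 and 188 ± 16.8 CPM, 0.20 ± 0.054, 0.040). The averaged calls were Acss2 (-0.16 ± 0.039, 0.020) and the elongases Elovl6 (-0.22 ± 0.053, 0.019) and Elovl7 (-0.68 ± 0.18, 0.031). Elovl6 stood at 25.5 ± 0.919 CPM in WT naive, 22.0 ± 0.820 in KO naive, 22.4 ± 1.63 in WT effector and 19.2 ± 0.892 in KO effector cells. Elovl7 was low, at 5.89 ± 1.05, 4.61 ± 0.510, 1.25 ± 0.310 and 0.598 ± 0.149 CPM in the same order.

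Between the populations 13 of the 46 were higher and 19 lower in WT effector cells, and 14 and 19 in KO, beside 30.2% higher and 25.9% lower of all tested genes in WT and 31.6% and 26.8% in KO. The sterol transfer gene Gramd1b rose from 83.0 ± 4.48 to 263 ± 12.5 CPM in WT (log2 1.66 ± 0.055, adjusted p = 8.5e-18), and Rxra, a partner of LXR, from 19.0 ± 0.618 to 53.3 ± 2.497 (1.48 ± 0.065, 1.7e-15). The related gene Rxrb went the other way, from 104 ± 3.27 to 87.3 ± 4.85 CPM in WT and from 99.6 ± 1.53 to 89.6 ± 1.84 in KO. In WT naive cells Rxrb stood at 35.8 FPKM and Rxra at 3.53. Npc2, which hands cholesterol out of lysosomes, fell from 559 ± 19.9 to 222 ± 6.13 CPM (-1.33 ± 0.046, 2.3e-17), and Lipa, the lysosomal lipase that frees it, from 166 ± 2.05 to 112 ± 6.54 (-0.57 ± 0.047, 2.3e-10). Acss2 fell from 108 ± 4.54 to 54.9 ± 3.83 CPM (-0.97 ± 0.055, 2.7e-13) and Hacd3 rose from 96.8 ± 4.998 to 164 ± 3.00 (0.76 ± 0.056, 2.6e-11). In KO the log2 changes were 1.66 for Gramd1b, 1.25 for Rxra, -1.37 for Npc2, -0.45 for Lipa, -1.20 for Acss2, 1.03 for Hacd3 and -0.54 for Gramd1a.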

How the data were processed

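RNA sequencing was done on 12 libraries made with a kit that selects mRNA and keeps strand, per the labels' protocols. The deposited tables hold raw read counts per gene made by the authors and FPKM values per gene. The submitters' processing notes list STAR, Picard and DESeq2 1.30.0, with mm10 and GRCm38 as genome builds. Which program counted the reads, and with what strand setting, was not given in the sources used here. Per gene, the deposited FPKM values equal the counts divided by 1 length per gene and 1 factor per library for the 11921 genes compared. They carry no further information on spread and were used only for levels and as an alternative.

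The main test was edgeR 4.0.16 (R 4.3.3): genes kept by filterByExpr (minimum count 10), TMM scaling, 1 coefficient per group over all 12 libraries, robust quasi-likelihood fit, and Benjamini-Hochberg adjustment over 15905 genes at 0.05. The biological coefficient of variation, edgeR's name for the spread between libraries of a group beyond counting noise, was 5.21%. As said above, this spread may be partly technical. Intervals are 95%. Columns were matched to groups by name, and the labels name no batch. Libraries of a group differed beyond sampling noise (chi-square per gene 2.25 to 5.89), so none was merged. Only the main edgeR fit was tested on simulated data, for KO against WT and with larger changes than those called in the set. Recovery of changes as small as those called was not tested. Alternatives used DESeq2 1.42.0 size factors and test, limma 3.58.1 on counts (voom) and on log2(FPKM + 1) or log2(FPKM + 0.1) with or without a minimum of 1 FPKM, no filter, a mean of 5 CPM, only the groups compared, and each library left out.

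The genes, the role groups, the further pathway genes and the marker lists were chosen with earlier results of these data known. Values in every library are given for genes called in KO against WT, for up to 4 of each role group with the smallest p between WT effector and naive cells, and for Srebf1, Srebf2, Insig1, Insig2, Abca1, Abcg1, Scd1 and Scd2. Up to 6 further pathway genes per comparison are named by smallest p, and Rxrb is given beside Rxra. Locations are those of the deposited annotation on GRCm38, and promoter windows are from RefSeq on GRCm38.p6. Some marker genes are not reported here.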

Additional observations from a re-analysis of the deposited data

How the results depend on the processing

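No paired analysis was possible because the columns of the tables carry a running number and not the replicate numbers of the sample titles. Under the alternatives the calls in effector against naive cells kept their size: 20 to 24 genes in WT (23 in the test reported) and 18 to 24 in KO (22). The KO calls did not. In naive cells the count of 0 became 2 without a filter on low counts (Hmgcs1 and Nsdhl), 3 with only the groups compared (these and Insig1), and 0 to 1 with each library left out (Hmgcs1 without library 11). In effector cells the count of 1 became 2 without the filter (Abca1 added), 0 with only the groups compared and 0 in each of the 3 fits on log2 FPKM. It was 0 to 2 with each library left out: Abca1 was added without library 4 and Sc5d without library 10, and without library 12 the single call was Abcg1, higher. In the average the 5 became 6 without the filter (Hmgcs1 added), 4 with limma-voom, 4 with DESeq2 size factors, 3 by DESeq2 and 0 in each of the 3 fits on log2 FPKM, and 1 to 4 with each library left out. For the difference of the KO effects the 0 became 1 without the filter (Abca1) and was 0 with any library left out. The cause of these shifts was not tested. No gene called in the test reported changed sign in any of these alternatives. Of 1399 fits for single genes, 1239 stayed on the same side of the threshold, 120 lost a call and 40 gained one. The median averaged KO change of the 18 sterol enzymes lay between -0.14 and -0.076 throughout. The further pathway genes and the marker lists were tested once, with no alternative. At a coefficient of variation of 5.21% between libraries and 3 libraries a group, the widest intervals fell on genes with few reads such as Scd1 and Fdps.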
